A study of Mus musculus with 18 samples.

Results

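Lifr, Osmr, Il6ra, Il11ra1, Il6st, Jak1 and Stat3 encode receptors that signal through gp130 and the first steps behind them, and their mRNA was followed in mouse macrophages given a glucocorticoid. The genes were taken by name, and 6 of the 7 had probe sets with a single gene symbol on the array, of 17020 genes so named. Il11ra1, the receptor for interleukin 11, had no probe set with its symbol alone in the annotation used here and was not analysed. The 6 genes had 16 probe sets, and each gene was read from its brightest probe set. All 6 passed the filter on dim genes, as did 13215 genes in all. The group was chosen by the change in Lifr level over time in these same arrays, so the levels of Lifr are given as a description with no test. The other genes belong to the same signalling route, and p-values for them come from a fit over all 13215 genes.

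The macrophages were grown from the bone marrow of 3 male C57BL/6 mice aged 10 weeks, in serum and recombinant human CSF1, the growth factor that drives macrophage formation. After replating with the same additions, cells were collected untreated (baseline) or after exposure to the synthetic glucocorticoid dexamethasone at 100 nM lasting 1, 2, 4, 10 or 24 h. There were 3 arrays in each of the 6 groups, which the series text calls biological replicates. The labels give no genetic change, and all groups shared the CSF1 and the serum. They do not say which mouse gave which array or whether marrow was pooled, so p-values measure only the spread between these arrays, which may be technical. In bulk RNA, fewer cells that express a gene and less RNA per cell cannot be told apart. No vehicle group at the later times is among the labels, so time in culture and dexamethasone cannot be told apart.

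Cytokines of the interleukin 6 family act through receptors that share gp130, the product of Il6st. Interleukin 6 binds the receptor chain encoded by Il6ra, which then engages gp130, whereas leukemia inhibitory factor brings together gp130 and the chain encoded by Lifr. Oncostatin M in the mouse signals mainly through the chain encoded by Osmr with gp130. The receptor tails carry Janus kinases, Jak1 among them, which phosphorylate STAT3, a transcription factor that then enters the nucleus. Macrophages are known to respond to interleukin 6, while Lifr and Osmr are better known from stromal, epithelial and liver cells.

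Levels are log2 of the deposited intensity, so a difference of 1 is a doubling, and a level cannot be compared between genes because probes differ in brightness. Background was set at 3.86 log2, from the 95th percentile of 43 control probe sets on each array, averaged. Within groups, arrays correlated at 0.995 to 0.997. The difference between the 3' and 5' control probe sets of Gapdh, a sign of RNA quality, averaged 0.06 ± 0.03 log2 (SD, n = 3) before treatment and 0.15 to 0.20 after it. For Actb the same difference was 0.38 before and 0.40 to 0.43 after. Its part in the comparisons with baseline was not tested. All 9 macrophage markers, Csf1r and Cd68 among them, lay above background in every group. Of these, Mertk was called higher at 4 times and Itgam at 2, while Fcgr1 and Spi1 were each called lower at 1. Of 10 fibroblast and stromal markers, 8 lay at or below background on all 18 arrays, Col1a1, Col1a2, Col3a1, Dcn and Pdgfra among them. The summed intensity of that list ran from 94.3 to 108 over the arrays, with baseline at 95.9 to 102 and 24 h at 96.1 to 104. Of 5 endothelial markers, Cdh5, Tek and Emcn lay below background on all arrays, while Kdr and Vwf lay above it on all 18. Kdr averaged 5.23 log2 at baseline and 4.36 at 24 h and was called lower at 3 times. Vwf averaged 8.39 and 8.36 and was not called. The endothelial list summed to 387 to 415 at baseline and 354 to 393 at 24 h. Neutrophil markers, of which 6 of 7 lay above background at baseline and 5 at 24 h, summed to 699 to 1160 and 571 to 699. Of 4 mast cell and basophil markers only Kit lay above background, and the list summed to 102 to 104 at baseline and 49.8 to 67.0 at 24 h. The part of these lists in the results was not tested. Fkbp5, Tsc22d3, Per1 and Dusp1, known glucocorticoid-induced genes, were higher than baseline at 2, 4, 10 and 24 h. Nr3c1, the glucocorticoid receptor gene, was called lower at 4 h (limma adjusted p = 0.0493), and that call was lost without any 1 of 12 arrays, with adjusted p up to 0.188.

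Lifr went from near background to a clear signal between 1 and 4 h of dexamethasone and stayed there. At baseline the 3 arrays read 4.05, 4.41 and 4.18 log2, and at 1 h they read 3.83, 4.11 and 4.00. At 2 h the arrays read 6.22, 5.79 and 6.32, and at 4 h 7.37, 7.50 and 7.70. At 10 h they read 7.59, 7.82 and 8.05, and at 24 h 7.59, 7.75 and 8.25. Every array from 2 h on was higher than every array at baseline and 1 h, and the arrays at 10 and 24 h overlapped. In means the level was 4.21 ± 0.18 log2 (SD, n = 3) at baseline, 3.98 ± 0.14 at 1 h, 6.11 ± 0.28 at 2 h, 7.53 ± 0.17 at 4 h, 7.82 ± 0.23 at 10 h and 7.86 ± 0.34 at 24 h. The mean at 2 h was 3.73-fold and that at 24 h 12.5-fold the baseline mean. Of the change on the log2 scale at 24 h, 52.1% had been reached at 2 h and 90.8% at 4 h. The baseline mean of 4.21 lay close to the background of 3.86, and 1 of the 3 arrays at 1 h lay below it, so the true size of the rise is uncertain.

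**Figure D1:**
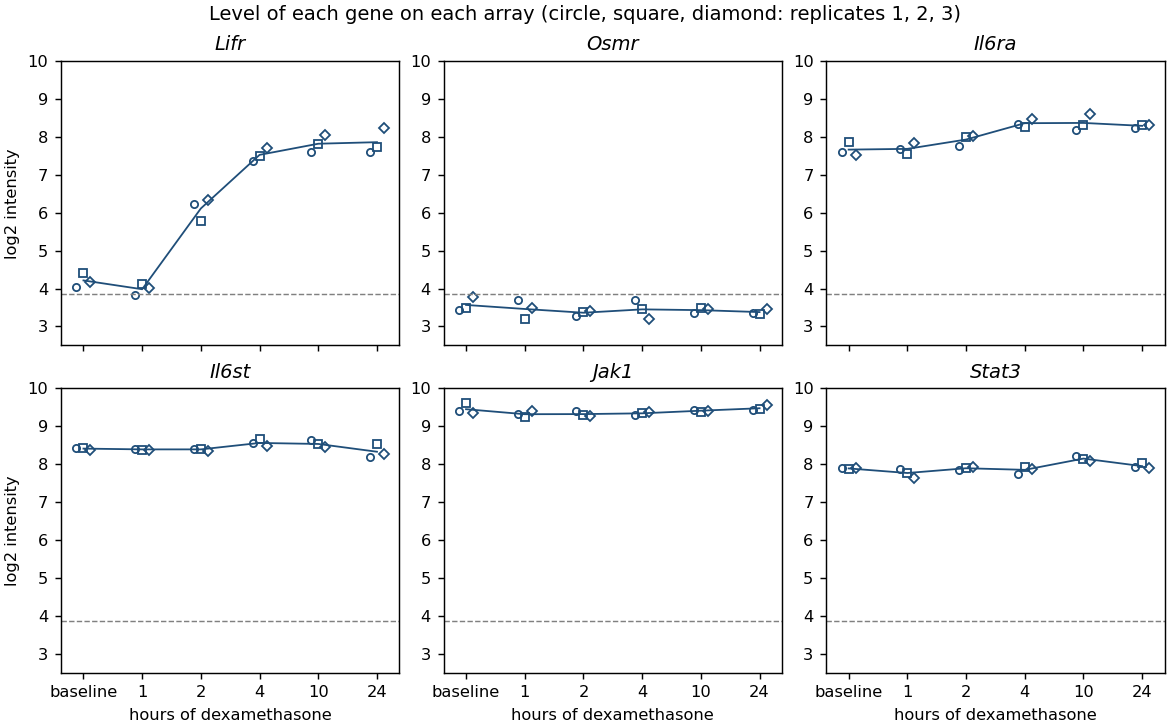
Level on each array (log2 intensity, vertical axis) of the probe set that stands for each gene, at baseline and after 1, 2, 4, 10 and 24 h of dexamethasone (horizontal axis, times evenly spaced), with a line through the group means of 3 arrays and a dashed line at the background of 3.86. Lifr rises from about the background to 7.86 on average at 24 h, Osmr stays below the background, Il6ra moves from 7.66 to 8.29, and the group means of Il6st, Jak1 and Stat3 stay within 0.26 log2 of baseline.

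The 3 probe sets of Lifr did not show the same time course. The brightest, 1454984_PM_at, which gave the values above, had risen at 2 h. The second, 1425107_PM_a_at, read 4.15, 4.15 and 3.85 log2 at baseline and 4.07, 3.76 and 3.87 at 2 h, which overlap. It then read 5.29, 4.84 and 4.88 at 4 h, 6.25, 6.53 and 6.83 at 10 h, and 6.90, 6.92 and 6.74 at 24 h. Its mean at 4 h was 34.0% of the way to its 24 h level, against 90.8% for the brightest probe set. The dimmest, 1450207_PM_at, stayed low, with means of 3.85 ± 0.18 at baseline, 4.30 ± 0.16 at 4 h, 4.99 ± 0.52 at 10 h and 4.49 ± 0.29 at 24 h. At 2 h these dimmer probe sets differed from their baseline means by -0.15 and 0.09 log2, where the brightest differed by 1.90. Which transcripts each probe set detects was not analysed here. The difference between probe sets was not tested, since all 3 read the same RNA and Lifr was chosen for its response.

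**Figure D2:**
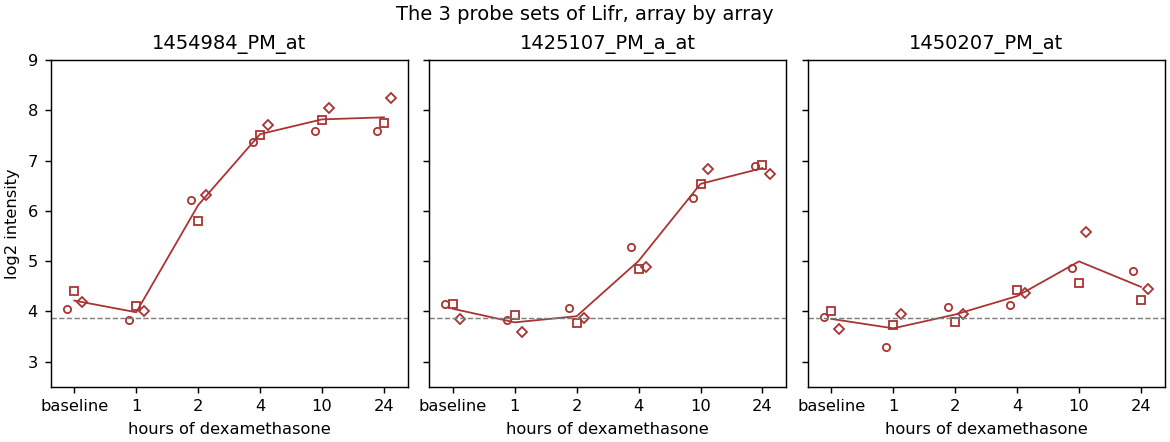
Level on each array (log2 intensity) of the 3 probe sets of Lifr over time in hours (evenly spaced), with replicates 1, 2 and 3 as circle, square and diamond, a line through the group means and a dashed line at the background of 3.86. The brightest stands at 6.11 at 2 h, when the other probe sets average 3.90 and 3.94.

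RefSeq lists 2 starts for Lifr in its GRCm38.p6 promoter table, and the 250 bases before each are shown because Lifr carries the main response. Both lie inside the annotated span of the gene, so an earlier start exists in the annotation. All 7 genes were found in that table, with 9 windows. Capitals mark a GC box, GGGCGG on either strand, of which the first window holds 2 and the second none.
Lifr, first start, chr15:7129322-7129571, plus strand: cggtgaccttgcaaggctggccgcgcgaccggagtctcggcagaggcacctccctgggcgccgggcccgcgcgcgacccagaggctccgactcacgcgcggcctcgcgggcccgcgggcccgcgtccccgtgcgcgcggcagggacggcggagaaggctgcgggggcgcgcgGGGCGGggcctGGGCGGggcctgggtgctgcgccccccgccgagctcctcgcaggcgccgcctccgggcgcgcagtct
Lifr, second start, chr15:7140292-7140541, plus strand: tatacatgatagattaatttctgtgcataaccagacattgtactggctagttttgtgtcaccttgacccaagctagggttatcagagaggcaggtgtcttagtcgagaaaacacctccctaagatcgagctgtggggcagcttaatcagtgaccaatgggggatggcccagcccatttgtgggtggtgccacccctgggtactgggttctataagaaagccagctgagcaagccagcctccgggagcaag
The first window is 82.4% G or C with 43 CpG dinucleotides, and the second is 50.8% with 3, beside medians of 52.4% and 6 over 32851 such windows. A GC box is found in 32.7% of all windows. Neither Lifr window holds the glucocorticoid response element, AGAACA and TGTTCT with 3 bases between, which 0.00913% of all windows hold, nor a looser form, GNACA and TGTNC with 3 bases between, which also matches every full element and is found in 0.387%. The STAT motif TTCNNNGAA (7.02% of windows), the C/EBP motif TTGCNNAA (9.56%), the AP-1 motif TGANTCA (6.75%) and the PU.1 core GAGGAA (23.3%) are also not in them. Both strands were searched, and the result speaks only of these letters in these windows.

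Osmr, which encodes the oncostatin M receptor chain, was not detected above background. Its brightest probe set ranged from 3.19 to 3.78 log2 over the 18 arrays, and its other 2 probe sets from 2.90 to 3.52 and from 2.82 to 3.15. None of the 3 exceeded 3.86 on any array. Group means of the brightest ran from 3.57 ± 0.19 (SD, n = 3) at baseline to 3.38 ± 0.07 at 24 h, a difference of -0.19 log2 with a 95% interval from -0.47 to 0.10 and a limma adjusted p of 0.433. In the RefSeq annotation Osmr is the nearest protein-coding neighbour of Lifr on 1 side, with only long non-coding RNA genes between them.

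Il6ra, which encodes the chain that binds interleukin 6, was called higher than baseline from 4 h on. Its arrays read 7.59, 7.87 and 7.54 log2 at baseline, 7.67, 7.54 and 7.85 at 1 h, and 7.77, 8.0 and 8.02 at 2 h. They then read 8.35, 8.26 and 8.48 at 4 h, 8.19, 8.31 and 8.60 at 10 h, and 8.24, 8.31 and 8.32 at 24 h. All 9 arrays from 4 h on were higher than all 3 at baseline, while those at 1 and 2 h overlapped baseline. The rise was 0.70 ± 0.11 log2 (limma SE, n = 3 arrays per group) at 4 h, 0.70 ± 0.11 at 10 h and 0.63 ± 0.11 at 24 h, or 1.62-fold, 1.63-fold and 1.54-fold. Limma's adjusted p was 4.46e-05, 2.57e-05 and 0.000126, and no single array left out ended any of these calls. At 2 h the difference was 0.27 ± 0.11, with a 95% interval from 0.05 to 0.48. It was not called (limma unadjusted p = 0.0185, adjusted p = 0.348). The step from 2 h to 4 h was itself called, at 0.43 ± 0.11 with an adjusted p of 0.03, against 1.90% of all tested genes called in either direction in that step. That call was lost without 2 h replicate 1 (0.175), 2 h replicate 2 (0.0578), 4 h replicate 1 (0.0911) or 4 h replicate 3 (0.151). From 4 h to 10 h and from 10 h to 24 h Il6ra differed by 0.01 and -0.08 log2, with 95% intervals from -0.21 to 0.22 and from -0.29 to 0.14.

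The dimmer probe set of Il6ra, 1422270_PM_a_at, was also higher on average but more spread. It stood at 5.08 ± 0.42 log2 at baseline, 5.52 ± 0.12 at 4 h, 5.37 ± 0.28 at 10 h and 5.39 ± 0.30 at 24 h (SD, n = 3). As the probe set of largest variance it gave differences of 0.44, 0.29 and 0.31 with limma adjusted p of 0.261, 0.431 and 0.378, so the calls for Il6ra rest on the brighter probe set. The mean of both probe sets kept them. The Il6ra promoter window is shown because Il6ra rose as well, with capitals on the PU.1 core, written on the opposite strand.
Il6ra, chr3:89913197-89913446, minus strand: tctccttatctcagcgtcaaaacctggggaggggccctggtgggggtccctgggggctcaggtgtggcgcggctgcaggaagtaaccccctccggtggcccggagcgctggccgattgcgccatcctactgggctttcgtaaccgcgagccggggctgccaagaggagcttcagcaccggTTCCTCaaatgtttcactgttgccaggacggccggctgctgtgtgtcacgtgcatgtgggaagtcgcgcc
It holds none of the other 6 motifs, GC box included, and is 65.2% G or C with 18 CpG dinucleotides. Neither form of the glucocorticoid response element was found in any of the 9 windows of the 7 genes.

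Il6st, which encodes the shared chain gp130, was clearly expressed and moved by at most 0.15 log2 from baseline. Its arrays read 8.44, 8.42 and 8.38 at baseline, 8.55, 8.66 and 8.47 at 4 h, 8.63, 8.53 and 8.44 at 10 h, and 8.19, 8.53 and 8.27 at 24 h. The 3 arrays at 4 h lay above the 3 at baseline, and those at 24 h spread to both sides of the baseline arrays. At 10 h the arrays also lay above baseline, but narrowly, with the lowest at 8.445 and the highest baseline array at 8.437. The difference was 0.15 log2 at 4 h, with a 95% interval from -0.01 to 0.31 and a limma adjusted p of 0.31, and -0.08 at 24 h, with an interval from -0.24 to 0.07. With the mean of its 3 probe sets the difference at 4 h was 0.26 and was called (adjusted p = 0.0377). The adjusted p over all 5 times was 0.144 in limma's F test.

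Jak1, the kinase bound to gp130, showed no called change. Its arrays read 9.39, 9.61 and 9.35 log2 at baseline and 9.43, 9.45 and 9.55 at 24 h, which overlap. Group means ran from 9.32 ± 0.07 (SD, n = 3) at 1 h to 9.48 ± 0.06 at 24 h, with 9.45 ± 0.14 at baseline. The largest difference from baseline was -0.13 at 1 h (limma unadjusted p = 0.0487, adjusted p = 0.999). At 24 h the difference was 0.03 with an interval from -0.11 to 0.16. The other 2 probe sets of Jak1 differed from baseline by 0.20 and 0.01 log2 at 24 h.

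Stat3, the transcription factor at the end of this route, was higher at 10 h only among the times tested. Its arrays read 7.89, 7.89 and 7.89 log2 at baseline, 7.74, 7.93 and 7.89 at 4 h, 8.23, 8.13 and 8.09 at 10 h, and 7.93, 8.03 and 7.89 at 24 h. The 3 arrays at 10 h were above all 6 at baseline and 4 h, and also above those at 24 h. At 1 h the arrays read 7.88, 7.78 and 7.64, all below those at baseline, a difference of -0.12 (limma adjusted p = 0.999). The baseline SD was only 0.004 log2, against 0.07 at 10 h. The share of all genes whose arrays separate in this way was not computed, here or for Il6ra and Il6st. The rise at 10 h was 0.26 ± 0.08 log2 (limma SE, n = 3, adjusted p = 0.0219), or 1.20-fold. The step from 4 h to 10 h was 0.30 ± 0.08 (adjusted p = 0.0238), beside 4.17% of all tested genes called in that step. The step from 10 h to 24 h was -0.20 ± 0.08 with an adjusted p of 0.226. The call at 10 h was lost without baseline replicate 1 (0.051), 2 (0.0526) or 3 (0.0525) and without 10 h replicate 1 (0.0885). That of the step was lost without 4 h replicate 1 (0.156) or 10 h replicate 1 (0.102). Both calls were also lost with the mean of all probe sets (0.277 and 0.468) and with only the groups compared (0.0727 and 0.0835). The second Stat3 probe set was below background on all 18 arrays.

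**Figure D3:**
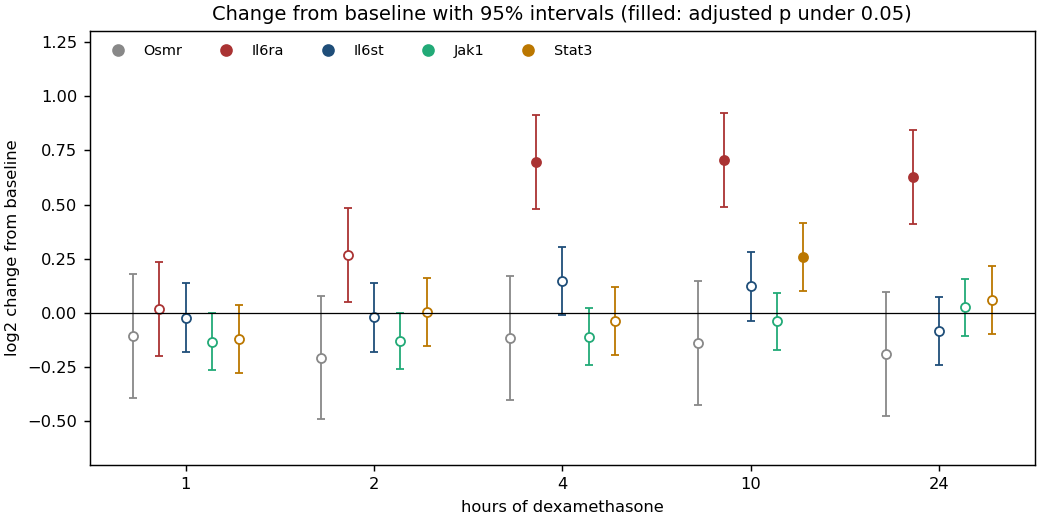
Difference from the baseline mean (log2, vertical axis) of Osmr, Il6ra, Il6st, Jak1 and Stat3 at each time in hours (evenly spaced), with 95% intervals from limma over 3 arrays per group and filled points where the adjusted p was under 0.05. Filled points are Il6ra at 4, 10 and 24 h (0.70, 0.70 and 0.63) and Stat3 at 10 h (0.26); all intervals of Il6st and Osmr include 0.

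Counted over the 5 tested genes other than Lifr, 0 were called at 1 h and 0 at 2 h by limma, with 1 at each time at an unadjusted p under 0.05. At 4 h 1 was higher, at 10 h 2 and at 24 h 1. Over all tested genes 0.303% were called higher at 1 h, 1.57% at 2 h, 4.49% at 4 h, 8.27% at 10 h and 7.36% at 24 h. None of the 5 was called lower at any time, with 1 lower at an unadjusted p under 0.05, Jak1 at 1 h. Lower calls over all tested genes were 0.0832%, 0.575%, 3.02%, 6.14% and 5.33% at the same times. The F test over the 5 times called 2 of 5, Il6ra (adjusted p = 2.81e-06) and Stat3 (0.0118), beside 17.4% of all genes. Without 10 h replicate 1 it called 1 of 5. The median difference of the 5 at 24 h was 0.03 log2, against 0.01 over all tested genes. Between successive times the counts were 0 from 1 h to 2 h (1 higher at an unadjusted p under 0.05), 1 higher from 2 h to 4 h, 1 higher from 4 h to 10 h and 0 from 10 h to 24 h (2 lower at an unadjusted p under 0.05). The last count was 1 without 24 h replicate 2. Of all tested genes 1.12%, 1.90%, 4.17% and 2.15% were called in these steps, with 0.878%, 1.16%, 2.35% and 0.984% higher and 0.242%, 0.742%, 1.82% and 1.17% lower.

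The genes most like the brightest Lifr probe set in time course were sought among 2299 other genes called by the F test. The measure was Pearson correlation over the 18 arrays. The dimmer Lifr probe sets, of which 1425107_PM_a_at differed from baseline by -0.15 log2 at 2 h, were not compared. The ranking therefore holds for the brightest probe set only. The closest was Mertk, a receptor for apoptotic cells and one of the macrophage markers above, at r = 0.991 (Spearman 0.936). Frmd4b followed at 0.987 (0.944). Next came Fkbp5, a chaperone of the glucocorticoid receptor, at 0.985 (0.847), Tlr7, a sensor of single-stranded RNA, at 0.982 (0.895), and Rcsd1 at 0.979 (0.862). The points share the same 6 groups, so r mostly reflects group means, and the genes were picked as the highest of many. Their rises differed in size. From baseline to 24 h the mean rose by 2.10 log2 for Mertk, 1.22 for Frmd4b, 3.54 for Fkbp5, 1.24 for Tlr7 and 1.23 for Rcsd1, against 3.65 for Lifr. Il6ra correlated with Lifr at 0.921 (0.864), and Stat3 at 0.543 (0.633). For Il6ra itself the closest genes were Tlr7 at 0.931 and Hipk1, a nuclear kinase, at 0.928, and for Stat3 they were Itch, a ubiquitin ligase, at 0.857 and Acaa2, an enzyme of fatty acid oxidation, at 0.85.

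**Figure D4:**
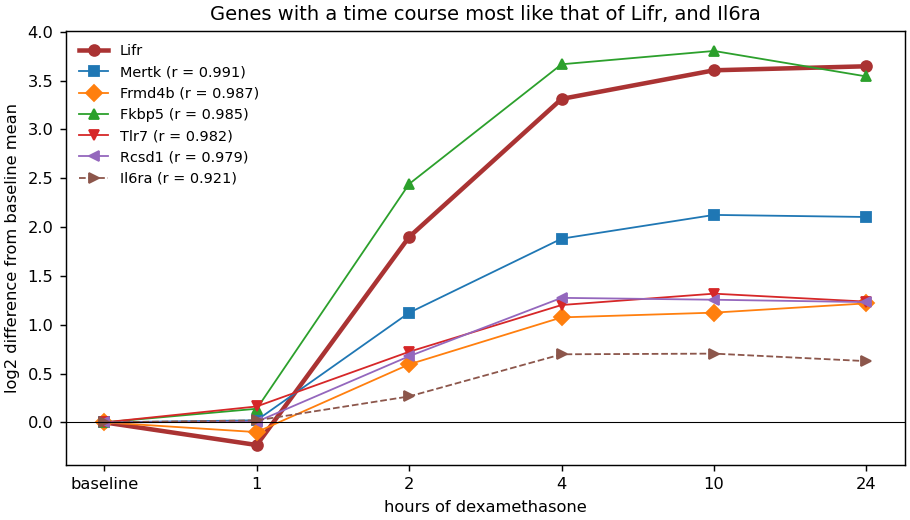
Difference of the group mean from the baseline mean (log2, vertical axis) over time in hours (evenly spaced). Lines are Lifr (brightest probe set only), the 5 genes with the highest Pearson correlation to it over 18 arrays, and Il6ra (dashed). Each point is the mean of 3 arrays. Fkbp5 runs close to Lifr in size, at 3.54 and 3.65 at 24 h, while Il6ra reaches 0.63.

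Other genes of the route were taken from lists chosen with earlier results of these arrays known. Of 74 genes 62 were tested, and 1, 6, 11, 16 and 17 were called at 1, 2, 4, 10 and 24 h. In percent these are 1.61%, 9.68%, 17.7%, 25.8% and 27.4%, against 0.386%, 2.14%, 7.51%, 14.4% and 12.7% of all tested genes. Most of the calls at each time came from 1 list, the 22 tested STAT3 targets. These gave 1 higher at 1 h, 5 higher at 2 h, and 5 higher and 2 lower at 4 h. At 10 h and again at 24 h they gave 7 higher and 3 lower. The count at 2 h was 3 without 2 h replicate 3. The count at 4 h was 7 without baseline replicate 3 and 7 without 4 h replicate 2. The median difference of the 62 at 24 h was 0.04 log2, against 0.01 over all genes.

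Of 11 ligand genes 5 were tested, and 3 of these lay above background on most arrays. Ebi3, a subunit that pairs with a partner chain to form cytokines, was above it on 18 of 18 arrays, at 9.63 ± 0.13 log2 (SD, n = 3) at baseline and 9.63 ± 0.06 at 24 h. It was called by limma's F test over the 5 times (adjusted p = 0.0392) but at no single time, with its largest difference, -0.18, at 10 h (0.0747). Il11 was above background on 18 of 18 arrays, at 4.29 ± 0.13 at baseline and 4.32 ± 0.15 at 24 h, and Ctf1, which encodes cardiotrophin, on 15 of 18. Il6 lay between 2.64 and 3.08 log2 on all arrays, below background, as did Il31. Lif, the ligand of Lifr, stood at 3.82 ± 0.53 log2 (SD, n = 3) at baseline and 3.17 ± 0.16 at 24 h, both below background on average, and was called lower at 24 h (-0.65 ± 0.19, limma adjusted p = 0.0231). That call was lost without baseline replicate 2 (0.162), baseline replicate 3 (0.121), 24 h replicate 1 (0.0635) or 24 h replicate 2 (0.0962), and without the intensity trend (0.0585). The F test over the 5 times did not call Lif (adjusted p = 0.141). No other ligand was called against baseline at a single time. Osm, Cntf and Il27 had no probe set with their symbol alone in the annotation used here. Of the other receptor chains, 3 of 4 were tested and 0 called by limma at any time, with 1 higher at an unadjusted p under 0.05 at 4 h. The brightest, Il27ra, stood at 4.12 ± 0.16 at baseline and 3.90 ± 0.05 at 24 h and lay above background on 13 of 18 arrays. Cntfr did so on only 2 and Il31ra on only 3, so a change in these chains could be missed.

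Of 8 other kinases and STATs tested, 1 was called at a single time, at 10 h, when 14.4% of all tested genes were. This was Jak2, which rose by 0.33 ± 0.09 log2 at 10 h (limma adjusted p = 0.0127) and was at 0.24 ± 0.09 at 24 h (0.0889). The call was lost without baseline replicate 1 (0.0714) or 10 h replicate 1 (0.0892), and the probe set of largest variance gave 0.61. The F test over the 5 times called Stat2 (adjusted p = 0.0354), which stood at -0.35 at 10 h (0.0842), and not Jak2 (0.0797). On the adaptor side, where gp130 couples to MAP kinases and PI3 kinase, 2 of 5 tested genes were higher and 1 lower at 24 h, against 7.36% and 5.33% of all tested genes. Gab1 rose by 0.79 ± 0.14 at 24 h (adjusted p = 0.000286), from 5.19 ± 0.09 to 5.98 ± 0.13 (SD, n = 3), and by 0.33 with the mean of its probe sets (0.0499). Gab2 rose by 0.26 ± 0.07 at 24 h (0.0117) and Grb2 fell by 0.19 on the log2 scale (SE 0.05, adjusted p = 0.0161). The Gab2 call was lost without baseline replicate 1 (0.0671) or 24 h replicate 2 (0.0745), and that of Grb2 without baseline replicate 3 (0.0805) or 24 h replicate 2 (0.0964). With the mean of all probe sets Gab2 was at 0.19 (0.108) and Grb2 at -0.10 (0.141). Gab2 was also not called with the probe set of largest variance (0.0781) or by the F test over the 5 times (adjusted p = 0.0527), nor Grb2 without the intensity trend (0.0569).

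Of 15 negative regulators, 2 were higher and 1 lower at 4 h, and 0 higher and 1 lower at 24 h. Over all tested genes the shares were 4.49% higher and 3.02% lower at 4 h and 7.36% and 5.33% at 24 h. Socs2, a feedback inhibitor of cytokine receptors, rose by 1.25 ± 0.32 log2 at 4 h (limma adjusted p = 0.0123) and was at 0.20 ± 0.32 at 24 h (0.76). The call at 4 h was lost without baseline replicate 3 (0.0953) or 4 h replicate 2 (0.088), and its call at 2 h, at 1.19 ± 0.32, without any 1 of 9 arrays. With the mean of its probe sets Socs2 was at 0.43 at 4 h (0.146) and 0.51 at 2 h (0.168). Without the intensity trend the call at 4 h was also lost (0.0627), and that at 2 h was lost under 7 of 11 other settings. Cish, of the same family, rose by 0.52 ± 0.16 at 4 h (0.0457) and by 0.47 ± 0.16 at 10 h (0.0476), calls lost without any 1 of 9 and of 12 arrays, and under 3 and 5 of 11 other settings. Limma's F test over the 5 times did not call Cish (adjusted p = 0.131). Ptpn6, the phosphatase SHP-1, fell by 0.25 on the log2 scale at 4 h (SE 0.05, adjusted p = 0.000891) and fell by 0.22 at 10 h (SE 0.05, 0.00208). At 24 h it was the gene called lower, at -0.17 (0.0194), a call lost without baseline replicate 1 (0.067), baseline replicate 3 (0.0543), 24 h replicate 1 (0.152) or 24 h replicate 3 (0.0613), without the intensity trend (0.0762), or with only the groups compared (0.0589). Socs3, the main feedback inhibitor of gp130, was not called at any time and stood at 0.34 ± 0.18 above baseline at 24 h (0.266). Its mean was 3.53 log2 at baseline, below the background of 3.86, and 3.87 at 24 h. Over the whole series only 6 arrays lay above background for Socs3, so a change in it could be missed. Of 4 genes for receptor shedding, by which Il6ra and other receptors are cut from the membrane, 2 rose at 24 h, when 7.36% of all tested genes did. Adam10 rose by 0.20 ± 0.06 (adjusted p = 0.0147) and Adam17 by 0.17 ± 0.05 (0.0369). Both calls were lost without baseline replicate 2 (0.0884 and 0.105), 24 h replicate 1 (0.053 and 0.144) or 24 h replicate 3 (0.0506 and 0.082), and that of Adam17 also without baseline replicate 3 (0.152). Neither was called without the intensity trend (0.0703 and 0.109), nor Adam17 with the mean of its probe sets (0.134) or the one of largest variance (0.22), which for Adam10 gave 0.45.

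Of 22 tested genes known as STAT3 targets, 7 were higher and 3 lower at 24 h, against 7.36% and 5.33% of all tested genes. At 4 h 5 were higher and 2 lower, against 4.49% and 3.02%. This list was chosen with earlier results of these arrays known, so the shares are a description and not a test. The median difference of the 22 at 24 h was 0.0118 log2, against 0.0115 over all tested genes. Fos, an immediate-early transcription factor, rose by 1.28 ± 0.10 log2 at 1 h (limma adjusted p = 5.67e-09) and was at 0.50 ± 0.10 at 24 h (0.000775). Bcl2l1, a survival gene, rose by 0.60 ± 0.07 at 4 h (2.75e-06), and by 0.92 with its probe set of largest variance. Of the acute phase genes, Hp stood at 1.82 ± 0.19 at 4 h (1.71e-07) and 4.60 ± 0.19 at 24 h (5.35e-15), and Saa3 at 0.13 ± 0.11 at 4 h (0.611) and 3.28 ± 0.11 at 24 h (3.68e-17). The 3 lower at 24 h were Ccnd1, Hif1a and Vegfa, and the 2 lower at 4 h were Pim1 and Hif1a. Genes of this list answer to other signals as well, glucocorticoids included, and mRNA levels of Stat3 or its targets do not measure STAT3 phosphorylation.

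**Figure D5:**
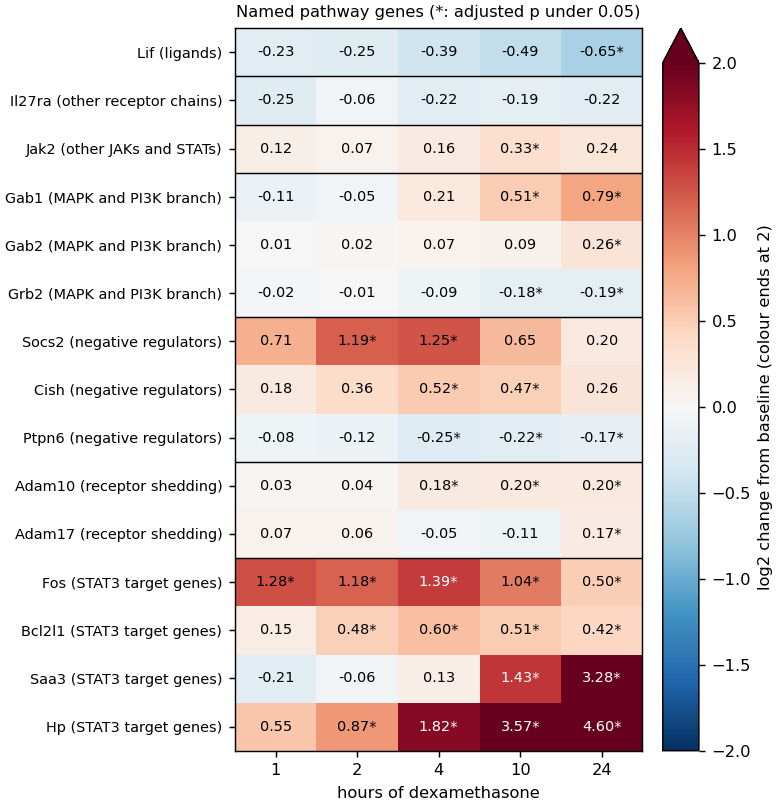
Difference from the baseline mean (log2, colour and printed value) of the named genes of each list at 1, 2, 4, 10 and 24 h of dexamethasone; stars mark a limma adjusted p under 0.05, n = 3 arrays per group, and the colour scale ends at 2. Hp (4.60) and Saa3 (3.28) are highest at 24 h, Socs2 is highest at 4 h (1.25), and Lif is the lowest value shown, at -0.65 at 24 h.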

How the data were processed

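The deposited table holds 1 linear intensity per probe set and array for 45141 probe sets, which the authors computed by RMA (affy), as named without versions in the submitters' processing notes. Because RMA equalises the arrays' distributions, it hides any shift common to most genes. The scale was read from the values (5.37 to 15224), and log2 was taken. In baseline replicate 1, 211 consecutive probe sets held an evenly stepped series of values; they were left out on all arrays, and none belonged to the genes described. Of the rest, probe sets with 1 gene symbol were used. The filter on dim genes required a level at or above the array's own 40th percentile on 3 or more arrays. Tests used limma 3.58.1 in R 4.3.3 with 1 mean per group over all 18 arrays, eBayes with an intensity trend, two-sided p-values and Benjamini-Hochberg adjustment over all 13215 genes at 0.05. The fit of 24 h against baseline was tried on simulated data with independent noise on each array. That simulation did not cover the probe set choice, the filter, the F test or the other comparisons. Deviations shared by same-numbered arrays were also not part of it. No read depth exists for arrays; their number limits the precision. The genes and lists were chosen with earlier results of these data known. Named list genes were the up to 4 with the smallest F test p among those called at 1 or more times, or the brightest tested gene where none was. The 5 genes most like Lifr and the 2 most like each other gene called by the F test were named by correlation. Others named singly were chosen after their values were seen. Alternatives covered the probe set, the filter, the scaling, the trend, the arrays in the fit, the replicate number, the stepped values and each array left out. Sequences are from RefSeq (GRCm38.p6); the array files name no build.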

Additional observations from a re-analysis of the deposited data

Results flagged for a closer look

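Within the treatment, 2 of the 5 tested genes differed between successive times by limma's test of that difference over all genes. Il6ra was higher at 4 h than at 2 h by 0.43 log2 (adjusted p = 0.03), and Stat3 was higher at 10 h than at 4 h by 0.30 log2 (adjusted p = 0.0238). Each step was lost without single arrays, named beside its value in the report.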

How the results depend on the processing

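The number of arrays limits these results, with standard errors of 0.06 to 0.14 log2 for the 5 tested genes, and Osmr gave no signal over background. Scaling the arrays again changed no count of called genes among the 5. With the probe set of largest variance the count of genes higher was 0 at 4 h, 1 at 10 h and 0 at 24 h, the step from 2 h to 4 h held 0 and the F test called 1. With the mean of all probe sets it was 2 at 4 h and 1 at 10 h, both steps held 0 and the F test called 1, and Lifr stood at 0.61, 1.57, 2.41 and 2.36 log2 at 2, 4, 10 and 24 h. Fitting only the groups compared gave 1 gene higher at 10 h and 0 in the step from 4 h to 10 h. Without an intensity trend the step from 2 h to 4 h held 0, and 7 and 10 list genes were called at 4 and 24 h. Leaving out 1 array gave 1 to 2 genes higher at 10 h, 0 to 1 in each of the last 3 steps, 1 to 3 in the F test, and 3 to 6 and 7 to 12 list genes at 2 and 4 h. With the replicate number as a block 2 list genes were called at 1 h in place of 1, and no other count here moved by over 1.5 times. Over all genes the block raised the calls from 51 to 93 at 1 h and from 283 to 432 at 2 h. At 4, 10 and 24 h it raised them from 992 to 1397, from 1905 to 2446 and from 1678 to 2249. Deviations of same-numbered arrays correlated at 0.0239 to 0.289 over 45 pairs, 35 of them over 0.1. Those of differently numbered arrays correlated at -0.226 to 0.0761 over 90 pairs, 0 of them over 0.1. Of 18 arrays, 18 correlated best with their own number, which hints at a pairing the labels do not state. Directions turned only for values that were not called. With the probe set of largest variance Il6ra was at -0.30 at 1 h, Il6st at 0.23, 0.21 and 0.0573 at 1, 2 and 24 h, and Jak1 at 0.12 at 10 h. With the mean of all probe sets Il6ra was at -0.14, Il6st at 0.11 and Stat3 at 0.004 at 1 h, Il6st at 0.0575 at 2 h, Stat3 at 0.0106 at 4 h and Jak1 at 0.0414 at 10 h. Stat3 at 2 h was at -0.0078 with arrays centred and -0.0209 with quantile normalization. Leaving out 1 array gave Osmr -0.227 to 0.0262 at 1 h and -0.242 to 0.014 at 4 h, Il6ra -0.0608 to 0.1211 at 1 h, Stat3 -0.0168 to 0.0229 at 2 h and -0.0755 to 0.0174 at 4 h, and Jak1 -0.0911 to 0.0418 at 10 h and -0.0266 to 0.1063 at 24 h. The cause of these differences was not tested.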
